A study of Mus musculus with 79 samples.

Results

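Genes of the type 1 helper T cell (Th1) programme were followed across mouse T helper 17 (Th17) cultures. The 9 genes were Tbx21, Il12rb2, Cxcr3, Stat4, Il18r1, Il18rap, Runx3, Eomes and Hlx, taken by their symbols, out of the 20465 genes in the expression table. T cells were labelled with the division dye CFSE and cultured with IL1b, IL6 and IL23, which gives pathogenic Th17 cells (Th17p), or with TGFb and IL6, which gives non-pathogenic Th17 cells (Th17n). Each culture also held EGCG at 20 uM or its solvent control DMSO, or DHEA at 50 uM or its solvent control methanol. RNA was taken from the unsorted population (Total) and, by a sort on the dye, from cells with a history of 1 division (Div.1); the unsorted population still holds such cells. The series states 5 mice per condition; neither the mouse strain nor its age is given in the sources used here. The 2 cell types, 4 treatments and 2 sorts make 16 groups, of 5 libraries each except Th17p DMSO Div.1 and Th17n DMSO Div.1, which had 4 each. A library of the 79, in well A4 and labelled Th17n DMSO Div.1, was left out, so that 78 libraries were used; its levels lay outside the range of the other 4 libraries of that label for 8 of the 9 genes.

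The Th1 programme is built around T-bet, the transcription factor encoded by Tbx21. In T cells, IL-12 binds a receptor made of Il12rb1 and Il12rb2 and activates STAT4. IL-18 binds a receptor made of Il18r1 and its accessory chain Il18rap. T-bet acts with RUNX3 and the homeobox factor HLX at Th1 genes, shares targets with the related T-box factor EOMES, and drives the chemokine receptor CXCR3. EGCG is the usual abbreviation of epigallocatechin gallate, a green tea polyphenol, and DHEA that of dehydroepiandrosterone, a steroid precursor.

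Levels are in TPM, a share of all transcripts that is scaled for transcript length and can be set side by side between genes; the depth of each library is unknown, because the table gives no counts. Between 9338 and 9845 genes reached 1 TPM in each library, and pairs of libraries of a group correlated with r of 0.989 to 0.997. The sum of 5 T cell markers (Cd3d, Cd3e, Cd3g, Cd4, Cd28) ran from 604 to 1371 TPM. Cd3d, Cd3e, Cd3g and Cd4 were called higher in 8 of 8 comparisons of a compound with its solvent, and Cd28 in 3 of 8. Each of these comparisons called 18.1% to 33.7% of all tested genes higher. The sum of 6 Th17 markers ran from 118 to 8560 TPM; its Th17p Total means were 2394 TPM in DMSO, 316 in EGCG, 1697 in methanol and 198 in DHEA, and its Th17n Total means 7229, 6906, 5439 and 1030 TPM in the same order. Of 10 CD8 T and NK cell markers, 7 stayed below 1 TPM in every library, Cd8a among them. The others were Cd8b1, at 3.41 to 26.9 TPM, Klrd1, at 0 to 24.2 TPM, and Klrc1, at 0 to 6.98 TPM. The sum of the 10 ran from 3.97 to 37.1 TPM. Its Th17p Total means were 6.11 TPM in DMSO, 10.9 in EGCG, 9.25 in methanol and 19.1 in DHEA. Its Th17n Total means were 21.3, 16.9, 23.7 and 28.8 TPM in the same order. B cell markers summed to at most 5.12 TPM, with Th17n Total means of 0.855 TPM in DMSO, 1.73 in EGCG, 1.25 in methanol and 3.66 in DHEA, and the myeloid markers in the table to at most 0.961 TPM. The part of these marker shifts in the changes below was not tested. Ifng, the cytokine that defines Th1 cells, was listed at 0 TPM in 66 of the 78 libraries and reached at most 3.10 TPM.

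The genes lie on 6 chromosomes of the mouse genome (mm10, which is GRCm38), and all are protein-coding. Tbx21 is at chr11:97098071-97115331 on the minus strand, Il12rb2 at chr6:67291318-67376188 on the minus strand, Cxcr3 at chrX:101731535-101734269 on the minus strand, and Stat4 at chr1:51987148-52107189 on the plus strand. Il18r1 at chr1:40465552-40500854 and Il18rap at chr1:40515362-40551705 are neighbours on the plus strand, 14.5 kb apart. Runx3 is at chr4:135120652-135177990 and Eomes at chr9:118478212-118486132, both on the plus strand, and Hlx at chr1:184727140-184732619 on the minus strand. The 250 bases upstream of 13 annotated RefSeq starts (GRCm38.p6) covered 9 of 9 genes, and 4 windows are shown as examples. They are that of Tbx21, without a match, and those of Il12rb2, Cxcr3 and Il18r1 with a STAT or RUNX match. A Runx3 window with RUNX matches and the Stat4 windows, without matches, are not shown. Capitals mark matches, on either strand, to the T-box motif AGGTGTG, the STAT motif TTCNNNGAA or the RUNX motif TGTGGT, whose reverse complement is ACCACA. Each is written 5′ to 3′ on the strand of its gene: Tbx21 from chr11:97115332-97115581 (minus), Il12rb2 from chr6:67376189-67376438 (minus), Cxcr3 from chrX:101734148-101734397 (minus) and the third window of Il18r1 from chr1:40465756-40466005 (plus).
Tbx21: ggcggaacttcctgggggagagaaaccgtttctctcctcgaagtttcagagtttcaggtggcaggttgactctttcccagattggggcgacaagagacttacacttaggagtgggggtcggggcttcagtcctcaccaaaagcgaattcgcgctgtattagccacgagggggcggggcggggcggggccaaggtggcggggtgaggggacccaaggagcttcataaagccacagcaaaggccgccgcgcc
Il12rb2: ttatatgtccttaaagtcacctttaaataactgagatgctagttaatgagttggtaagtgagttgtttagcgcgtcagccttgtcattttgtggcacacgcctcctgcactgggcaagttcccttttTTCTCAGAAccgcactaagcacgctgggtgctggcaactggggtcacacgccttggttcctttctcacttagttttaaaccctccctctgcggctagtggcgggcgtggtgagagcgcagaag
Cxcr3: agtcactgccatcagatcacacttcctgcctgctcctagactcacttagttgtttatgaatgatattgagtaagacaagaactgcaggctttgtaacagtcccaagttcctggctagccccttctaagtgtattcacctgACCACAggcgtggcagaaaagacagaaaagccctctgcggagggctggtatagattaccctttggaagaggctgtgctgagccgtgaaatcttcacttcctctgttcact
Il18r1: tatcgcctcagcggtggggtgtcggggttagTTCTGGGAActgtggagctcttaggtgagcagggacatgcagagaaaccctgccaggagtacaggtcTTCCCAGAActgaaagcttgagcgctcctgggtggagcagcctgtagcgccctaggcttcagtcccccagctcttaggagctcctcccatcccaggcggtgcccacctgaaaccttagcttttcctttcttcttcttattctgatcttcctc
The T-box motif matched in 0 of the 13 windows, against 5.1% of all 32851 windows of the same length. The STAT motif matched in 2 (7.02% of all windows), in Il12rb2 as TTCTCAGAA and in Il18r1 as TTCTGGGAA and TTCCCAGAA. The RUNX motif matched in 2 (14% of all windows), at 1 place in Cxcr3 and at 2 in a window of Runx3. Matched letters overlapped no other motif, and the matches are a description of these letters only.

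6 of the 7 genes expressed above the test's floor were higher in Th17p than in Th17n cells, and several of their responses to the compounds differed between the cell types. A gene was tested where it reached 1 TPM in at least 4 libraries; Eomes and Hlx never reached 1 TPM and were not tested. Changes are differences of log2(TPM + 1), tested with limma over all 10672 genes that passed the floor; called means an adjusted p under 0.05. In the solvent controls the Th17p cells were called higher for 6 genes and lower for 1, Runx3, in both sorts (30.9% of all tested genes were called higher and 26.5% lower in Total, 34.9% and 25.7% in Div.1). EGCG in Th17p Total lowered 6 of the 7 and raised 1, Stat4, where 14.9% of all genes were called lower and 30.1% higher. Their median log2 change was -0.77, against 0.09 over all tested genes. In Th17p Div.1, EGCG lowered 5 and raised 1 (11.9% of all genes called lower, 33.7% higher). DHEA in Th17p cells lowered 4 and raised 1 in Total (26.8% of all genes called lower, 20.9% higher) and again 4 and 1 in Div.1 (19.2% lower, 18.1% higher).

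In Th17n cells EGCG lowered 0 of the 7 genes in either sort by limma, also at an unadjusted p under 0.05, and raised 3 in Total (21.7% of all genes called higher, 13.5% lower) and 5 in Div.1 (28.1% higher, 6.77% lower). With well A4 put back under its label, 2 of those 5 calls were left, and the Div.1 changes of Il12rb2, Cxcr3 and Stat4 became 0.13, 0.07 and 0.42 (adjusted p = 0.781, 0.862 and 0.0552, limma). DHEA raised 2 and lowered 3 in Th17n Total (20.8% of all genes higher, 25.3% lower), and raised 2 and lowered 1 in Div.1 (22.1% higher, 14.6% lower). Stat4 was called higher in 8 of 8 comparisons of a compound with its solvent, and Gata3, the Th2 lineage factor, was as well. Each comparison called 18.1% to 33.7% of all tested genes higher, and the share called higher in all 8 was not counted. With no filter on low values the Stat4 calls with DHEA in Th17p Total and Div.1 were lost (adjusted p = 0.0534 and 0.0535, limma). In these bulk libraries fewer cells of a type and less RNA per cell cannot be told apart.

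**Figure D1:**
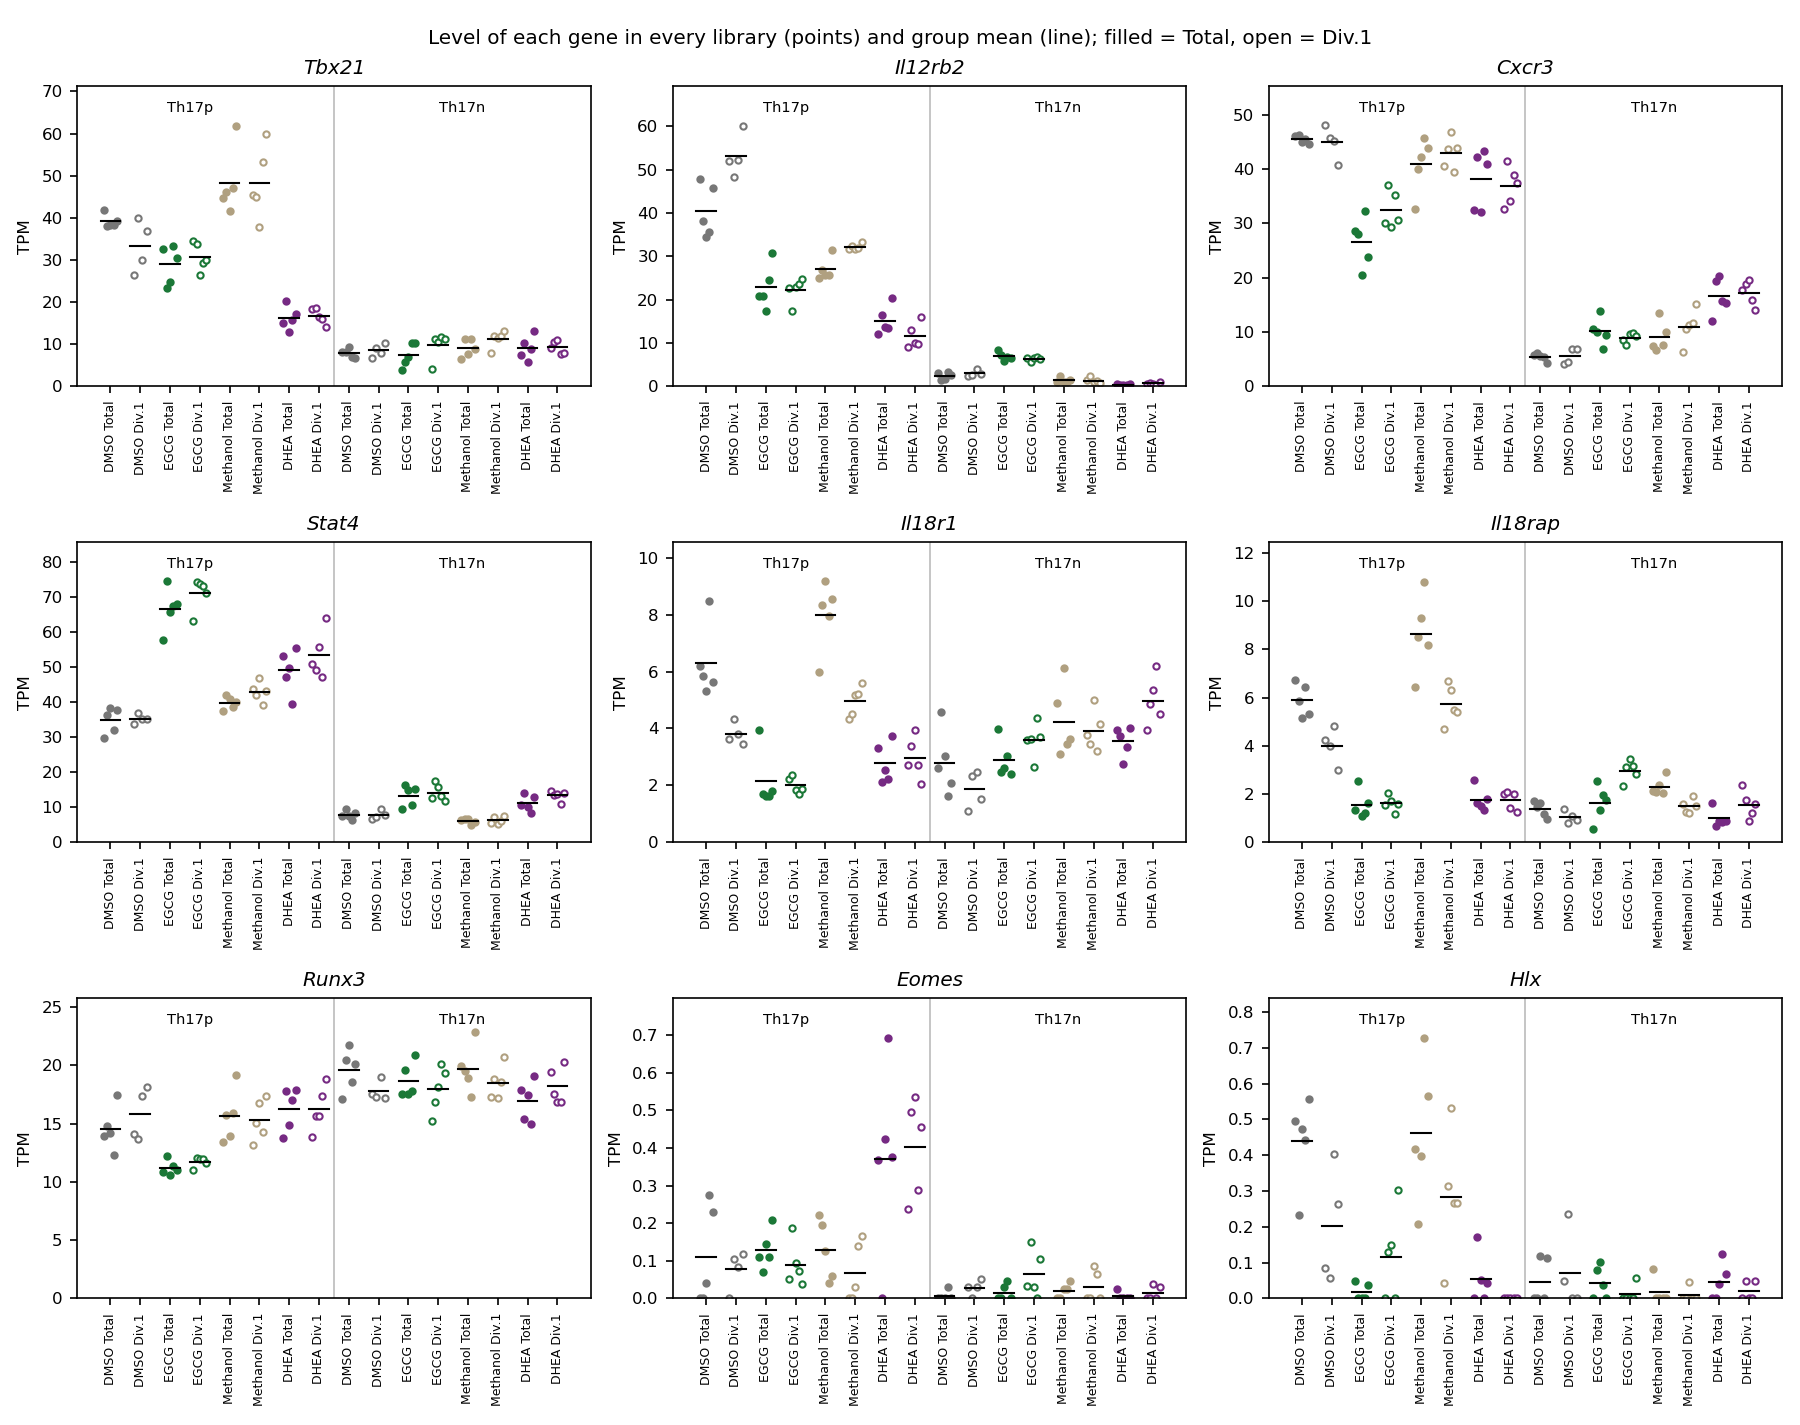
Level in TPM (vertical axes, linear, from 0) of the 9 genes in each of the 78 libraries by group, filled for Total and open for Div.1, with a line at each group mean. Il12rb2, Cxcr3 and Stat4 are higher in every Th17p library than in any Th17n library, while Eomes and Hlx stay below 1 TPM.

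Tbx21, the gene of T-bet, was lowered 2.97-fold by DHEA in Th17p cells and less by EGCG. In Th17p methanol Total libraries it stood at 44.7, 46.025, 41.5, 47.01 and 61.9 TPM (mean 48.2 ± 7.92, SD, n = 5). In Th17p DHEA Total libraries it stood at 15.1, 20.2, 12.9, 15.8 and 17.1 TPM (16.2 ± 2.70, n = 5). All 5 DHEA libraries lay below all 5 methanol libraries, and Tbx21 fell by 1.52 on the log2 scale (SE 0.18, limma adjusted p = 1.36e-10). The Div.1 libraries repeated the pattern, from 48.3 ± 8.54 TPM in methanol to 16.7 ± 1.82 in DHEA (n = 5 each, log2 change -1.47, adjusted p = 9.98e-10, limma). EGCG gave a small shift in Total, from 41.8, 38.2, 38.3, 38.3 and 39.3 TPM in DMSO (39.2 ± 1.51, n = 5) to 32.7, 23.3, 24.8, 33.4 and 30.6 TPM (28.9 ± 4.63, n = 5). The groups did not overlap and the change of -0.44 was called at an adjusted p of 0.0444 by limma, but the call was lost without any 1 of 8 libraries (without Th17p EGCG Total replicate 2 the change was -0.37 and the adjusted p 0.125) and with well A4 under its label (0.116). In Div.1 the EGCG libraries (26.4 to 34.4 TPM) overlapped the DMSO libraries (26.5 to 39.98 TPM), with a log2 change of -0.10 (95% interval -0.49 to 0.29, limma adjusted p = 0.713).

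Th17n cells held Tbx21 at 3.90 to 13.1 TPM (median 9.18), against 12.9 to 61.9 TPM (median 33.4) in Th17p cells. The ranges met at the lowest Th17p libraries, which had received DHEA. In the solvents Th17p cells had 4.96 times the Th17n mean in DMSO Total and 5.30 times in methanol Total (log2 difference 2.24, SE 0.13, limma adjusted p = 7.77e-25), and in DHEA Total 1.78 times. None of the 4 compound comparisons in Th17n cells was called by limma, with changes from -0.25 to 0.12 and adjusted p from 0.29 to 0.946 (unadjusted p from 0.169 to 0.916, so 0 of 4 under 0.05). The Th17n EGCG Div.1 libraries stood at 3.99, 11.3, 10.6, 11.8 and 11.1 TPM, with the first well below the rest. In order of the means the 4 solvent groups of Th17p came first, and the only gap between neighbouring groups of the 16 lay between Th17p EGCG Total and Th17p DHEA Div.1.

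Il12rb2 encodes the signalling chain of the IL-12 receptor and gave the widest contrast between the cell types. Th17p DMSO Total libraries held 47.8, 38.02, 34.6, 35.5 and 45.8 TPM (40.3 ± 6.07, n = 5), and Th17n DMSO Total libraries 3.10, 1.48, 1.66, 3.25 and 2.64 TPM (2.43 ± 0.816, n = 5). The lowest Th17p library of any treatment, at 8.97 TPM, lay above the highest Th17n library, at 8.37 TPM. Over the solvents the log2 difference was 3.61 in Total (SE 0.11, adjusted p = 3.25e-41, limma) and 3.82 in Div.1 (adjusted p = 5.49e-41). The ratio of means between Th17p and Th17n was 16.6 in DMSO Total, 20.0 in methanol Total, 3.31 in EGCG Total and 41.2 in DHEA Total.

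EGCG moved Il12rb2 in opposite directions in the 2 cell types. In Th17p EGCG Total the libraries held 20.9, 20.8, 17.3, 24.6 and 30.7 TPM (22.9 ± 5.07, n = 5), all below the DMSO libraries (log2 change -0.81, SE 0.15, limma adjusted p = 8.79e-06). In Th17p Div.1 it fell from 52.1, 48.3, 52.3 and 59.99 TPM in DMSO (n = 4) to 22.6, 17.3, 22.96, 23.7 and 24.7 TPM (n = 5), again with no overlap (log2 change -1.23, adjusted p = 1.94e-09, limma). In Th17n EGCG Total the libraries held 8.37, 7.16, 5.81, 6.78 and 6.46 TPM, 2.85 times the DMSO mean and with no overlap (log2 change 1.23, SE 0.15, limma adjusted p = 9.19e-10). The rise in Th17n Div.1 was 0.89, from a mean of 3.0 to 6.36 TPM (adjusted p = 6.95e-06, limma).

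DHEA lowered Il12rb2 in all 4 comparisons. In Th17p Total it fell from 25.1, 26.9, 25.7, 25.6 and 31.5 TPM in methanol (26.95 ± 2.62, n = 5) to 12.005, 16.4, 13.6, 13.4 and 20.4 TPM (15.2 ± 3.33, n = 5; log2 change -0.81, limma adjusted p = 6.75e-06). In Th17p Div.1 the fall was from 32.2 ± 0.691 to 11.5 ± 2.90 TPM (n = 5 each, log2 change -1.43, adjusted p = 5.9e-12, limma). In Th17n Total the libraries went from 0.911 to 2.41 TPM in methanol to 0.240 to 0.478 TPM in DHEA, with no overlap (log2 change -0.75, adjusted p = 2.92e-05, limma), and with a pseudocount of 0.1 in place of 1 that change was -1.57. In Th17n Div.1 the groups overlapped, with means of 1.33 and 0.648 TPM (log2 change -0.49, limma adjusted p = 0.00743; -0.98 with a pseudocount of 0.1), and without methanol Div.1 replicate 7 the adjusted p was 0.0649, or 0.214 with well A4 under its label (limma).

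Stat4, the transcription factor activated by the IL-12 receptor, rose with both compounds where the receptor chain fell. Th17p DMSO Total libraries held 29.7, 36.3, 38.2, 32.1 and 37.7 TPM (34.8 ± 3.72, n = 5) and EGCG Total libraries 57.6, 74.3, 65.5, 67.4 and 67.8 TPM (66.5 ± 5.99, n = 5). The groups did not overlap and the mean was 1.91 times higher (log2 change 0.92, SE 0.11, limma adjusted p = 3.23e-10). In Th17p Div.1 the means were 35.2 ± 1.31 TPM in DMSO (n = 4) and 71 ± 4.52 in EGCG (n = 5; log2 change 0.99, adjusted p = 2.27e-10, limma). The DHEA rise in Th17p was smaller: Total libraries held 37.5, 42.1, 40.7, 38.5 and 39.8 TPM in methanol and 53.1, 47.2, 49.7, 39.5 and 55.3 in DHEA, with 1 DHEA library inside the methanol range (log2 change 0.29, adjusted p = 0.0309, limma). That call was lost without any 1 of 5 libraries, furthest without DHEA Total replicate 10 (0.24, adjusted p = 0.0931), and the Div.1 call (0.30, adjusted p = 0.0306) without any 1 of 4, furthest without DHEA Div.1 replicate 10 (0.23, adjusted p = 0.121, limma). With well A4 under its label their adjusted p were 0.171 and 0.176 (limma).

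Stat4 in Th17n cells stood lower throughout, at 4.98 to 17.5 TPM (median 9.48) against 29.7 to 74.3 TPM (median 46.7) in Th17p cells, with no overlap. In the solvents the log2 difference between the cell types was 2.28 in Total and 2.33 in Div.1 (limma adjusted p = 9.07e-37 and 9.02e-36). EGCG raised it in Th17n Total from 7.36, 9.47, 7.35, 6.28 and 8.42 TPM to 9.48, 16.4, 14.9, 10.6 and 15.1 TPM (log2 change 0.69, adjusted p = 1.63e-06, limma). DHEA raised it in Th17n Total from 6.12 to 11.2 TPM by the means (0.76, adjusted p = 4.8e-08) and in Div.1 from 6.32 to 13.3 TPM (0.97, adjusted p = 1.28e-10, limma). The EGCG rise in Th17n Div.1 was 0.79 (limma adjusted p = 1.99e-07).

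**Figure D2:**
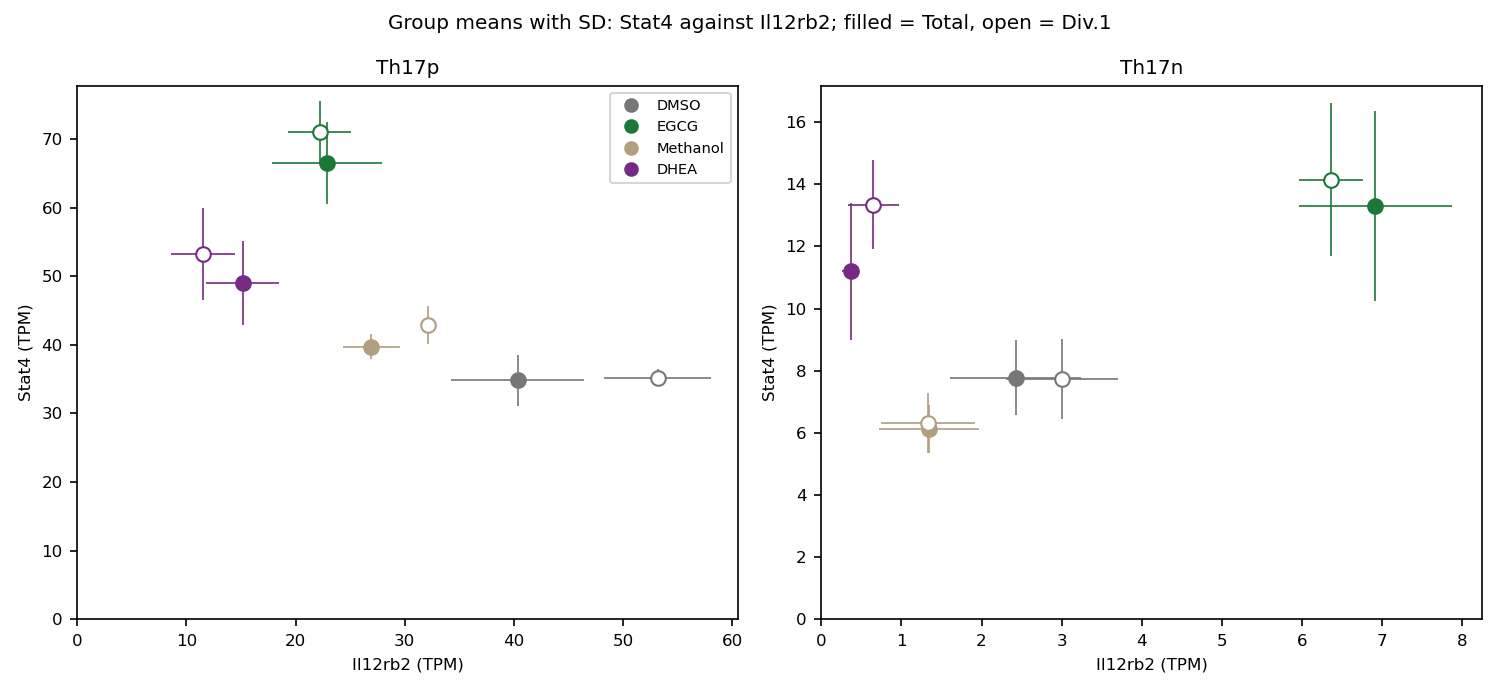
Group means of Stat4 (vertical axis, TPM) against Il12rb2 (horizontal axis, TPM) with SD bars for the 8 Th17p groups and the 8 Th17n groups, on separate linear scales. In Th17p cells both compounds sit at higher Stat4 and lower Il12rb2 than their solvents; in Th17n cells EGCG groups sit higher on both axes and DHEA groups higher on Stat4 and lower on Il12rb2.

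Cxcr3, the chemokine receptor of Th1 cells and a T-bet target, was lowered by EGCG in Th17p cells and raised by both compounds in Th17n cells. Th17p DMSO Total libraries held 46.2, 46.3, 44.9, 45.6 and 44.5 TPM (45.5 ± 0.753, n = 5), and EGCG Total libraries 28.6, 28.1, 20.4, 32.2 and 23.7 TPM (26.6 ± 4.58, n = 5). All EGCG libraries lay below the DMSO libraries (log2 change -0.77, SE 0.15, limma adjusted p = 1.16e-05), and in Div.1 the change was -0.46 (adjusted p = 0.012, or 0.145 with well A4 under its label, limma). DHEA left Th17p Total libraries at 32.03 to 43.3 TPM, overlapping the methanol range of 32.7 to 45.8 TPM (log2 change -0.10, 95% interval -0.39 to 0.19, adjusted p = 0.607, limma). In Th17p Div.1 its change was -0.21 (adjusted p = 0.263), which was called only when the 2 groups were compared alone (adjusted p = 0.0399, limma).

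Th17n cells held Cxcr3 at 4.02 to 20.2 TPM, below the lowest Th17p library at 20.4 TPM. EGCG raised it in Th17n Total from 5.81, 6.17, 5.57, 5.45 and 4.31 TPM to 10.55, 9.93, 13.9, 6.93 and 9.37 TPM, with no overlap (log2 change 0.76, SE 0.15, limma adjusted p = 2.79e-05). DHEA raised it from 7.45, 6.75, 13.5, 7.55 and 10.015 TPM to 12.1, 19.3, 20.2, 15.7 and 15.3 TPM, where 1 methanol library lay inside the DHEA range (0.82, adjusted p = 3.01e-06, limma). The Div.1 changes were 0.63 with EGCG (adjusted p = 0.000908) and 0.64 with DHEA (adjusted p = 0.000305, limma), the latter with overlapping groups. Between the cell types in the solvents, the log2 difference was 2.47 in Total and 2.38 in Div.1 (limma adjusted p = 2.19e-32 and 6.19e-30).

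Il18r1 and Il18rap, the ligand-binding and accessory chains of the IL-18 receptor, were low in all groups and fell with both compounds in Th17p cells. Il18rap stood at 6.72, 5.86, 5.14, 6.43 and 5.30 TPM in Th17p DMSO Total and at 1.33, 2.55, 1.103, 1.20 and 1.63 TPM in EGCG Total. The groups did not overlap and EGCG was 3.77-fold lower by the means (log2 change -1.45, SE 0.15, limma adjusted p = 9.42e-13). With DHEA Il18rap went from 6.45, 8.51, 9.30, 10.8 and 8.20 TPM in methanol Total to 2.59, 1.64, 1.5, 1.33 and 1.79 TPM, 4.89-fold lower (log2 change -1.80, adjusted p = 2e-16, limma). Il18r1 went from 6.20, 5.83, 5.32, 8.46 and 5.63 TPM in DMSO Total to 3.95, 1.69, 1.62, 1.63 and 1.797 TPM in EGCG Total (-1.25, adjusted p = 9.36e-10) and from 8.0 ± 1.21 TPM in methanol to 2.78 ± 0.711 in DHEA (n = 5 each, -1.26, adjusted p = 6.3e-10, limma). In Div.1 the falls were smaller, at -0.68 and -0.61 for Il18r1 and -0.93 and -1.29 for Il18rap with EGCG and DHEA (limma adjusted p from 1.27e-10 to 0.00159).

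In Th17n cells the IL-18 receptor genes followed no single direction. EGCG in Th17n Div.1 raised Il18rap from 1.38, 0.808, 1.104 and 0.926 TPM (n = 4) to 2.33, 3.12, 3.44, 3.17 and 2.81 TPM (n = 5), with no overlap (log2 change 0.95, limma adjusted p = 1.64e-06). It raised Il18r1 from 1.86 ± 0.647 to 3.58 ± 0.626 TPM in the same libraries (0.70, adjusted p = 0.00075, limma). In Th17n Total EGCG gave changes of 0.08 for Il18r1 and 0.10 for Il18rap (limma adjusted p = 0.742 and 0.646), with the Il18rap libraries spread from 0.540 to 2.54 TPM. DHEA in Th17n Total lowered Il18rap from 2.12, 2.07, 2.38, 2.06 and 2.89 TPM to 1.65, 0.657, 0.901, 0.854 and 0.888 TPM (-0.74, adjusted p = 2.8e-05, limma; -1.19 with a pseudocount of 0.1), and in Div.1 its change was 0.02 (adjusted p = 0.942, limma). DHEA changed Il18r1 in Th17n by -0.18 in Total and 0.28 in Div.1 (limma adjusted p = 0.377 and 0.172).

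In the solvents Il18rap was higher in Th17p than in Th17n by 1.54 in Total and 1.35 in Div.1, and Il18r1 by 0.89 and 0.53 (limma adjusted p from 6.06e-21 to 0.000106). With compound the order changed for Il18r1: its mean was 2.14 TPM in Th17p and 2.90 in Th17n EGCG Total, and 2.95 against 4.97 TPM in DHEA Div.1. Mean Il18rap was 1.56 TPM in Th17p and 1.63 in Th17n EGCG Total, 1.61 against 2.97 in EGCG Div.1, and higher in Th17p with DHEA, at 1.77 against 0.989 TPM in Total and 1.75 against 1.56 in Div.1; these pairs were not tested. Over the 8 Th17p group means the 2 genes had a Pearson correlation of 0.971, and over the 8 Th17n group means of 0.411, as a description of groups that share libraries and solvents.

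Runx3, a partner of T-bet, was the most even of the 7 genes. Th17p libraries held 10.6 to 19.1 TPM (median 14.2) and Th17n libraries 14.99 to 22.8 TPM (median 18.1), and the solvent difference was -0.37 in Total and -0.21 in Div.1 (limma adjusted p = 4.3e-07 and 0.00346). EGCG lowered it in Th17p Total from 13.9, 14.8, 14.2, 12.3 and 17.4 TPM to 10.8, 12.2, 10.6, 11.4 and 10.97 TPM, with no overlap (log2 change -0.34, SE 0.09, adjusted p = 0.000843, limma). In Th17p Div.1 the change was -0.40 (limma adjusted p = 0.000281). DHEA gave 0.06 and 0.08 in Th17p Total and Div.1 (limma adjusted p = 0.611 and 0.499), and -0.20 in Th17n Total (adjusted p = 0.0482), with overlapping groups. That last call was lost without any 1 of 7 libraries, furthest without methanol Total replicate 10 (-0.15, adjusted p = 0.179, limma), and with well A4 under its label (0.051).

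Eomes and Hlx were near the bottom of the scale. Eomes was listed at 0 TPM in 27 of the 78 libraries and reached 0.692 TPM at most, in a Th17p DHEA Total library. Its Th17p DHEA Div.1 libraries held 0.238, 0.496, 0.536, 0.288 and 0.456 TPM, above the 0 to 0.165 TPM of the methanol Div.1 libraries. In Total the DHEA libraries, at 0 to 0.692 TPM, overlapped the methanol libraries, at 0.041 to 0.222 TPM. Hlx was listed at 0 TPM in 36 libraries. It stood at 0.495, 0.232, 0.474, 0.443 and 0.558 TPM in Th17p DMSO Total and at 0.047, 0, 0, 0 and 0.038 TPM in EGCG Total; methanol Total libraries held 0.209 to 0.727 TPM and DHEA Total libraries 0 to 0.172 TPM. The Total groups of Hlx did not overlap. In Div.1 its EGCG libraries, at 0 to 0.303 TPM, overlapped the DMSO libraries, at 0.0559 to 0.403 TPM, and DHEA libraries were all listed at 0, against 0.0422 to 0.532 TPM in methanol. No test was made, and with an unknown depth a value of 0 does not show that the gene was silent. All Th17n libraries held at most 0.149 TPM of Eomes and 0.235 TPM of Hlx.

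**Figure D3:**
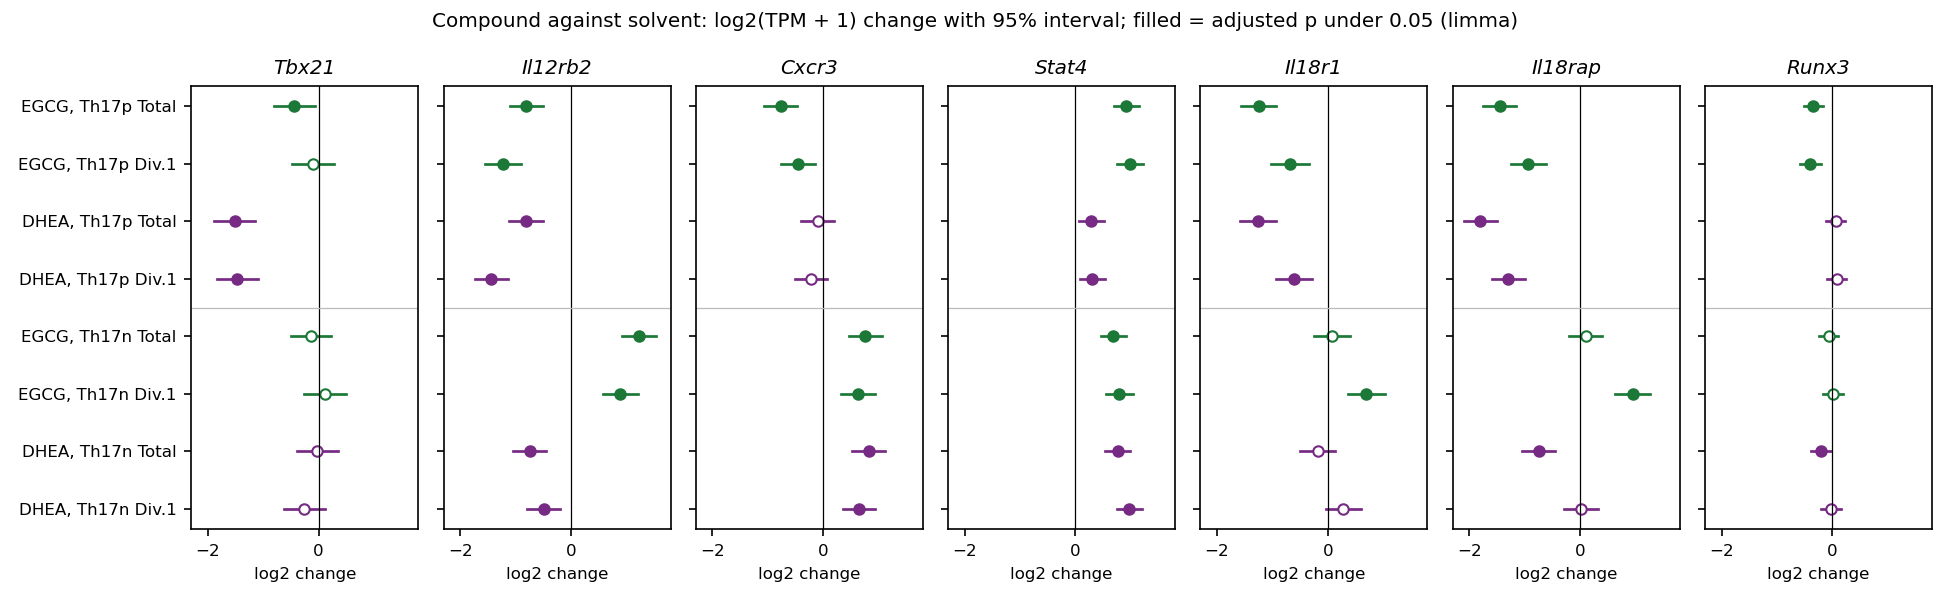
Change of log2(TPM + 1) (horizontal axes) with its 95% interval for the 7 tested genes in the 8 comparisons of a compound with its solvent; filled points had an adjusted p under 0.05 by limma. Stat4 lies to the right of 0 in all 8, and Il12rb2 lies left of 0 in all but the Th17n EGCG comparisons.

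The responses were then compared between the cell types within the same model, as the Th17p change minus the Th17n change. EGCG responses were more negative in Th17p for 4 of 7 genes in Total (7.55% of all genes called lower, 12.4% higher) and for 5 of 7 in Div.1 (8.38% lower, 9.12% higher). The largest difference was in Il12rb2, at -2.04 in Total (SE 0.21, adjusted p = 4.08e-11) and -2.12 in Div.1 (adjusted p = 1.04e-10, limma). Il18rap differed by -1.55 and -1.89, Cxcr3 by -1.53 and -1.09 and Il18r1 by -1.33 and -1.38 (limma adjusted p from 2.79e-09 to 0.000153). With well A4 under its label the Cxcr3 difference in Div.1 was -0.53 (adjusted p = 0.374, limma). For Stat4 the EGCG responses differed by 0.23 in Total (95% interval -0.09 to 0.55, adjusted p = 0.347) and 0.20 in Div.1 (-0.14 to 0.53, adjusted p = 0.499, limma). Runx3 differed in Div.1 by -0.40 (adjusted p = 0.0215), a call lost without Th17p DMSO Div.1 replicate 3 (-0.36, adjusted p = 0.0596) or 5 (-0.34, adjusted p = 0.077). In Total its difference of -0.28 missed the threshold (adjusted p = 0.108) and passed it when TPM values were rescaled by the median ratio (-0.31, adjusted p = 0.0386) or with the plate column as a block (adjusted p = 0.0315, limma).

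DHEA responses were more negative in Th17p for 5 of 7 genes in Total (6.73% of all genes called lower, 8.06% higher) and 6 of 7 in Div.1 (9.39% lower, 6.49% higher). Tbx21 differed by -1.50 in Total (SE 0.26, adjusted p = 1.54e-05) and -1.21 in Div.1 (adjusted p = 0.000422, limma). Il18r1 and Il18rap differed by -1.08 and -1.06 in Total and by -0.89 and -1.31 in Div.1, and Cxcr3 by -0.92 and -0.86 (limma adjusted p from 5.65e-06 to 0.00335). Stat4 rose less in Th17p, by -0.48 in Total (adjusted p = 0.0308, lost without any 1 of 6 libraries, furthest without Th17n DHEA Total replicate 7 at -0.40 and 0.0904) and -0.67 in Div.1 (adjusted p = 0.00158, limma). Il12rb2 gave -0.06 in Total (95% interval -0.49 to 0.36, adjusted p = 0.907) and -0.94 in Div.1 (adjusted p = 0.000922), and the latter became -0.53 with a pseudocount of 0.1 (adjusted p = 0.27, limma). The Total value does not show equal responses. There the DHEA mean of Il12rb2 was 0.56 times the methanol mean in Th17p and 0.27 times in Th17n. At these low Th17n levels the pseudocount of 1 shrinks the change, which was -1.57 in Th17n Total with 0.1. With well A4 under its label the adjusted p were 0.065 and 0.0864 for Cxcr3 in Total and Div.1, 0.213 and 0.0521 for Stat4, and 0.139 for Il12rb2 in Div.1 (limma).

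**Figure D4:**
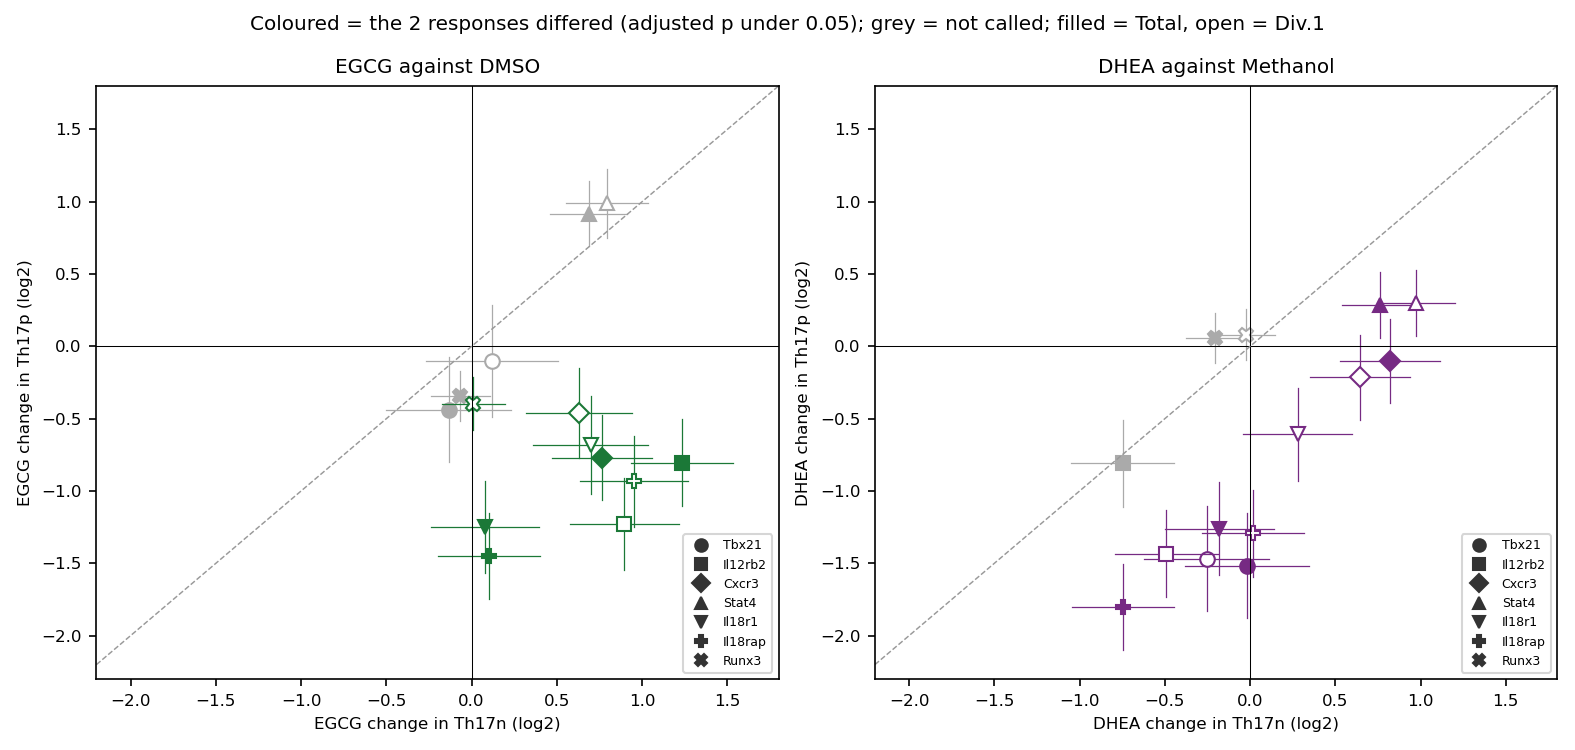
Log2 change in Th17p (vertical axis) against that in Th17n (horizontal axis) for EGCG and for DHEA, with 95% intervals, filled for Total and open for Div.1; the dashed line marks equal responses, and coloured points are those whose responses differed by limma. Il12rb2 and Cxcr3 lie at the lower right for EGCG in both sorts (lower in Th17p, higher in Th17n), and Tbx21 lies well below the line for DHEA.

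EGCG and DHEA, at different doses, in different solvents and in different plate columns, were set against each other as the difference of their responses over both sorts. In Th17p cells 3 of 7 genes had a higher EGCG response and 2 a lower one (33.7% and 12.9% of all genes). Tbx21 fell less with EGCG, by a difference of 1.22 (SE 0.19, adjusted p = 8.07e-08), and Stat4 rose more, by 0.66 (adjusted p = 1.79e-06, limma). Cxcr3 and Runx3 had lower EGCG than DHEA responses, by differences of -0.46 and -0.44 (limma adjusted p = 0.00855 and 2.68e-05). The difference of 0.36 in Il18rap (adjusted p = 0.0478) was lost without any 1 of 22 libraries (without Th17p EGCG Total replicate 2, 0.29 and 0.101), and with well A4 under its label the adjusted p were 0.115 for Il18rap and 0.127 for Cxcr3 (limma). Il12rb2 and Il18r1 gave 0.11 (95% interval -0.20 to 0.41) and -0.03 (-0.35 to 0.29). In Th17n cells 2 genes had a higher EGCG response and 0 a lower one by limma, also at an unadjusted p under 0.05 (25% and 11.7% of all genes): Il12rb2 by 1.68 (adjusted p = 1.67e-14) and Il18rap by 0.89 (adjusted p = 1.93e-06). With a pseudocount of 0.1 these were 2.58 and 1.36.

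In the Th17p solvents Div.1 cells had less Il18r1 (-0.59, adjusted p = 0.000134) and less Il18rap (-0.49, adjusted p = 0.00064) than the unsorted population, and more Il12rb2 (0.32, adjusted p = 0.0281, limma), so that 1 gene was called higher and 2 lower (8.63% and 10.8% of all genes). The Il12rb2 call was lost without any 1 of 3 libraries (without DMSO Div.1 replicate 5 the adjusted p was 0.0667) and with a pseudocount of 0.1 (0.143) or well A4 under its label (0.345, limma). In Th17n 1 gene was called lower and 0 higher by limma, also at an unadjusted p under 0.05 (16.1% and 5.8% of all genes), Il18rap at -0.31 (adjusted p = 0.033), or -0.48 with a pseudocount of 0.1, and this call was lost without any 1 of 8 libraries (without DMSO Div.1 replicate 2, -0.28 and 0.0759, limma) and with well A4 under its label (-0.15 and 0.478).

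Between the sorts, the EGCG response in Th17p differed for 0 of 7 genes by limma (1.35% of all genes called higher, 1.22% lower), with Il18r1 and Il18rap at an unadjusted p of 0.0172 and 0.0217. In Th17n it was higher in Div.1 for 1 (10.8% of all genes higher, 2.53% lower), Il18rap, by 0.85 (adjusted p = 0.00451; 1.32 with a pseudocount of 0.1, and 0.54 with an adjusted p of 0.179 with well A4 under its label, limma). The DHEA response was lower in Div.1 for 1 gene in Th17p (4.31% of all genes lower, 5.6% higher), Il12rb2, by -0.63 (adjusted p = 0.0482), which was lost without any 1 of 14 libraries (without DHEA Total replicate 10, -0.52 and 0.112, limma) and with well A4 under its label (0.424). In Th17n it was higher for Il18rap (1 gene; 5.12% of all genes higher, 1.68% lower) by 0.76 (adjusted p = 0.0207; 1.20 with a pseudocount of 0.1), and without methanol Total replicate 10 this was 0.70 with an adjusted p of 0.0508, and with well A4 under its label 0.0768 (limma).

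The solvent groups themselves differed. Methanol libraries sat in plate columns 6 to 10 and DMSO libraries in columns 1 to 5, so solvent and column cannot be told apart. By well name each plate row held 1 cell type and 1 sort, with solvents or with compounds, well A4 apart. Differences between cell types, between sorts and between compound and solvent therefore cannot be told apart from plate row. In Th17p cells 3 of 7 genes were higher in methanol and 1 lower (8.44% and 5.14% of all genes): Tbx21 by 0.40 (adjusted p = 0.0317), Stat4 by 0.23 (0.0465), Il18rap by 0.45 (0.00196), and Il12rb2 by -0.63 (1.7e-05, limma). The Tbx21 call was lost without any 1 of 5 libraries (without DMSO Div.1 replicate 1, 0.35 and 0.0889) and the Stat4 call without any 1 of 14 (without DMSO Total replicate 1, 0.21 and 0.10); Il18r1, at 0.31 and 0.0631, was called without DMSO Total replicate 4 (0.0314) or methanol Total replicate 6 (0.0338, limma). In Th17n cells 3 were higher and 2 lower (10.1% and 4.26% of all genes): Cxcr3 by 0.73 (3.13e-07), Il18r1 by 0.65 (2.57e-05), Il18rap by 0.38 (0.0114; a change of 0.59 with a pseudocount of 0.1), Il12rb2 by -0.67 (4.03e-06) and Stat4 by -0.27 (0.0155, or 0.0626 without DMSO Div.1 replicate 3, limma). With well A4 under its label Cxcr3 became 0.45 (0.0638) and Il18rap 0.22 (0.267), and in Th17p the adjusted p were 0.11 for Tbx21, 0.242 for Stat4 and 0.0511 for Il12rb2 (limma).

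The other genes of the IL-12 and IFN-γ pathways did not move as a block. Of 14 listed, 13 were tested. EGCG raised 5 and lowered 3 in Th17p Total (30.1% of all genes higher, 14.9% lower), and DHEA raised 7 and lowered 1 (20.9% higher, 26.8% lower). In Th17p Div.1 EGCG raised 0 and lowered 5 by limma (33.7% of all genes higher, 11.9% lower), and DHEA raised 3 and lowered 2 (18.1% higher, 19.2% lower). The Th17p response to EGCG was lower in Div.1 than in Total for 4 of the 13 and higher for 0 (1.22% and 1.35% of all genes). That to DHEA was lower for 6 and higher for 0 (4.31% and 5.6%). Il12rb1, the receptor chain shared by IL-12 and IL-23, rose with EGCG in Th17p Total, from 71.4 ± 1.97 to 97.9 ± 4.73 TPM (log2 change 0.45, adjusted p = 1.77e-07, limma), where Il12rb2 fell. EGCG lowered Il2rb, an IL-2 receptor chain, by 0.90 and Socs3, a feedback inhibitor of STAT3, by 1.01 on the log2 scale (limma adjusted p = 9.82e-24 and 5.64e-20), and DHEA raised Socs3 by 0.58 (1e-10). In Th17n Total, EGCG raised 4 and lowered 0 by limma, also at an unadjusted p under 0.05 (21.7% of all genes higher, 13.5% lower), and DHEA raised 6 and lowered 1 (20.8% higher, 25.3% lower). In the Total solvents 3 of the 13 were higher in Th17p and 9 lower (30.9% and 26.5% of all genes), with Il2rb at -1.11 and Stat3 at -0.63 (1.68e-38 and 1.47e-26, limma). Across all libraries Jak2, a kinase of the IL-12 receptor, stood at 12.2 to 62.03 TPM and its partner Tyk2 at 3.53 to 15.7 TPM.

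Among genes listed as T-bet targets and Th1 effectors, more were called higher than lower with each compound. With EGCG this also held over all tested genes. Tbx21 was called higher in 0 of 8 comparisons. Of 19 listed, 15 were tested, and EGCG raised 8 and lowered 2 in Th17p Total (30.1% and 14.9% of all genes; median 0.90, against 0.09 over all tested genes), while DHEA raised 10 and lowered 1 (20.9% and 26.8% of all genes; median 0.46, against -0.02). With EGCG the smallest adjusted p were those of the death ligand Fasl (1.59, 8.42e-11), the cytokine Tnf (0.99, 8.44e-11) and the chemokine Ccl5 (1.45, 3.68e-08, limma). With DHEA they were those of granzyme B (Gzmb 3.35, 1.64e-20), the chemokine Ccl3 (-4.09, 1.02e-10) and perforin (Prf1 1.298, 1.21e-07, limma), beside the higher CD8 T and NK marker sum in these libraries, whose part was not tested. Some of these genes were low. Across all libraries Ccl5 stood at 0 to 3.78 TPM, with 42 of 78 libraries at 0, Prf1 at 0.151 to 3.64 and Fasl at 0 to 9.41. Tnf stood at 74.8 to 413 TPM, Gzmb at 0 to 129.2 and Ccl3 at 0 to 175.5. In Th17n Total EGCG raised 4 and lowered 1 (21.7% and 13.5% of all genes), led by the chemokine receptor Cxcr6 (1.5, 4.19e-11), and DHEA raised 9 and lowered 1 (20.8% and 25.3% of all genes), led by Nkg7, a cytotoxic granule gene (2.78, 2.82e-11, limma).

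Of 12 tested genes of IL-18 and IL-1 receptor signalling, EGCG raised 4 and lowered 4 in Th17p Total (30.1% and 14.9% of all genes) and DHEA raised 3 and lowered 3 (20.9% and 26.8%, shares that hold for the next lists too); Il1r1, the IL-1 receptor, fell by 1.52 and by 2.07 on the log2 scale (limma adjusted p = 1.33e-11 and 1.01e-16), and Myd88, the adaptor that the IL-1 and IL-18 receptors share, fell by 0.53 with EGCG (1.12e-10). Of 5 RUNX family members and partners, each compound raised 2 and lowered 1 in Th17p Total, and 0 were higher (also at an unadjusted p under 0.05) and 4 lower in Th17p than in Th17n Total solvents by limma (30.9% and 26.5% of all genes), with Runx1 at -0.52; Runx1 stood at 5.07 to 16.5 TPM across all libraries. Of 10 factors of other helper fates, EGCG raised 2 and lowered 4 in Th17p Total and DHEA raised 3 and lowered 3. Gata3 rose from 4.36 ± 0.811 to 12.7 ± 1.62 TPM with EGCG (log2 change 1.36, adjusted p = 5e-13) and from 4.20 to 18.5 TPM with DHEA (1.94, adjusted p = 2.95e-19, limma).

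For each gene the tested genes with the closest pattern over the 16 group means were listed by Pearson correlation, as a description of groups that share depth and composition. Tbx21 was closest to the integrin gene Itgb8 (0.983), Il12rb2 to CCBL2 (0.977) with the cytokine gene Il22 at 0.971, Cxcr3 to Gstt2 (0.983) with the inhibitory receptor gene Tigit at 0.952, and Stat4 to Gfod1 (0.993). Il18r1 reached 0.849 with Sf3b1, Il18rap 0.922 with Eprs and Runx3 0.956 with Tgm2. After the mean of each cell type was taken away, Itgb8 remained first for Tbx21 (0.917) and Gstt2 for Cxcr3 (0.888), while Stat4 was closest to the death receptor gene Fas (0.966), Il12rb2 to Paqr8 (0.932), Il18r1 to Klf10 (0.904), Il18rap to Ccdc71l (0.931) and Runx3 to Mthfd1l (0.933).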

How the data were processed

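Poly(A) RNA of cultured mouse Th17 cells was sequenced on an Illumina instrument, per the labels' protocols. The authors deposited 1 table of TPM values for 20465 gene symbols in 79 libraries; Trimmomatic, kallisto and the mm10 build are named in the submitters' processing notes, with versions, annotation and the summing of transcripts to symbols not given in the sources used here. TPM holds no read counts, so depth is unknown and no counting interval is given. Column sums of the table ran from 880077 to 895017 TPM.

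Libraries were grouped by the cell type, treatment and sort in their labels, and the replicate number is the plate column. Values were taken as log2(TPM + 1) for the 10672 genes with at least 1 TPM in at least 4 libraries. limma 3.58.1 (R 4.3.3) fitted 16 group means to 78 libraries with a mean-variance trend, and 24 contrasts were each adjusted by Benjamini-Hochberg over all tested genes. SD values are over libraries; where nothing ties a library to a mouse, p-values measure the spread between libraries. Changes of low genes between 2 groups are understated by the pseudocount. A difference between responses can be overstated by it. The DHEA difference of Il12rb2 between cell types in Div.1 was -0.94, and -0.53 with a pseudocount of 0.1.

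The members and the gene lists were chosen with earlier results of these data known. All 9 genes were described; from each other list the counts and up to 3 called genes with the smallest p were taken, and Ifng, Il12rb1, Jak2, Tyk2, Gata3 and Runx1 were always given a level; some other genes that the rule names are not reported here. Tests were tried on simulated data with 200 changed genes of 10672. For EGCG in Th17p Div.1, 75% of shifts of 0.5 and 90% of shifts of 1 were found. For the EGCG difference between cell types in Total these were 51% and 90%, with 5.37% of calls false. The simulated libraries were independent, and a far larger share of genes was called in the data (33.7% higher and 11.9% lower for EGCG in Th17p Div.1). These rates may therefore not carry over to the data. Alternatives were a pseudocount of 0.1, no filter (19763 genes), rescaling by the median ratio (factors 0.925 to 1.105), the plate column as a block, well A4 put back, groups compared alone, and leaving out each library. Promoter windows were RefSeq sequences of GRCm38.p6, gene positions GENCODE M21; Python 3.11.15, pandas 2.3.3, NumPy 2.4.6 and matplotlib 3.10.9 were used.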

Additional observations from a re-analysis of the deposited data

Results flagged for a closer look

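Single libraries stood apart from the others of their group in 8 of 112 gene-by-group sets checked, and chance gives about 1 in 20. Tbx21 was lowest in Th17n EGCG Div.1 replicate 1 (3.99 TPM) and highest in Th17p methanol Total replicate 10 (61.9 TPM), where Il12rb2 was also highest (31.5 TPM). Il12rb2 was lowest in Th17p EGCG Div.1 replicate 2 (17.3 TPM) and Stat4 in Th17p EGCG Div.1 replicate 1 (63.2 TPM). Il18r1 was highest in Th17p DMSO Total replicate 4 (8.46 TPM) and in Th17p EGCG Total replicate 1 (3.95 TPM), and Il18rap in Th17n DHEA Total replicate 6 (1.65 TPM, 1.645 before rounding).

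A response differed between cell types or sorts in 23 of 56 tests of the difference by limma. For the EGCG response, Th17p minus Th17n, the log2 differences in Total were -2.04 for Il12rb2, -1.53 for Cxcr3, -1.33 for Il18r1 and -1.55 for Il18rap. In Div.1 they were -2.12 for Il12rb2, -1.09 for Cxcr3, -1.38 for Il18r1, -1.89 for Il18rap and -0.40 for Runx3. For the DHEA response the differences in Total were -1.50 for Tbx21, -0.92 for Cxcr3, -0.48 for Stat4, -1.08 for Il18r1 and -1.06 for Il18rap. In Div.1 they were -1.21 for Tbx21, -0.94 for Il12rb2, -0.86 for Cxcr3, -0.67 for Stat4, -0.89 for Il18r1 and -1.31 for Il18rap. For the response in Div.1 minus that in Total, Il18rap differed by 0.85 for EGCG and 0.76 for DHEA in Th17n, and Il12rb2 by -0.63 for DHEA in Th17p.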

How the results depend on the processing

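Of 168 gene-by-comparison results, 96 were called. Under the alternatives 0 results that were called, in the main fit or in the alternative, changed direction. The direction of results called in neither was not counted. A pseudocount of 0.1 ended 6 calls, no filter on low values 11, rescaling 2 and comparing groups alone 3. Well A4 under its label ended 27, with most of its levels outside the range of the other libraries of that label. Leaving out 1 library ended 15 calls in turn, and the cause was not tested. With A4 put back, called genes numbered 2 (5 without it) for EGCG in Th17n Div.1, 1 (4) and 3 (5) for methanol against DMSO in Th17p and Th17n, 3 (5) and 3 (6) for the DHEA difference between cell types in Total and Div.1, 3 (5) for EGCG against DHEA in Th17p, and 0 (1 each) for Div.1 against Total in Th17n, for the EGCG response between sorts in Th17n and for the DHEA response between sorts in Th17p and in Th17n. With no filter they numbered 0 for Div.1 against Total in Th17n, 2 for methanol against DMSO in Th17p and 0 for the DHEA response between sorts in Th17p, where a pseudocount of 0.1 gave 0; groups compared alone gave 2 there and 0 in Th17n. Leaving out 1 library gave 0 to 1 for Div.1 against Total in Th17n, 2 to 5 for methanol against DMSO in Th17p, 0 to 1 and 1 to 2 for the EGCG response between sorts in Th17p and Th17n, and 0 to 2 and 0 to 1 for the DHEA response between sorts. Depth is unknown, which limits Eomes, Hlx and the lowest Il12rb2 and Il18rap values.

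With the plate column as a replicate block, 151 of 154 results kept their side of the threshold, 0 calls were lost and 3 were gained; 2 genes were then called for the EGCG response between sorts in Th17n and 2 for the DHEA response between sorts in Th17p (1 each without the block). The solvent comparisons could not be fitted with it. No label says that a column is a mouse, so the numbers were not taken to pair libraries. Less their group means, libraries of a column correlated over 0.1 in 34 of 94 pairs (-0.00159 to 0.315). The medians of the comparisons ran from 0.0494 to 0.135 within a column and from -0.0391 to -0.0102 between columns. Of 38 compound libraries, 30 correlated best with the solvent library of their own column, a hint of pairing from the data and not the design.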

Other observations

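The library in well A4, labelled Th17n DMSO Div.1 and left out above, held 36.4 TPM of Tbx21, 54.02 of Il12rb2, 43.7 of Cxcr3, 30.6 of Stat4, 5.20 of Il18r1, 4.99 of Il18rap, 15.6 of Runx3, 0 of Eomes and 0.459 of Hlx. The other 4 libraries of that label held 6.72 to 10.2 TPM of Tbx21, 2.42 to 4.01 of Il12rb2 and 4.02 to 6.92 of Cxcr3. The 4 libraries labelled Th17p DMSO Div.1 held 26.5 to 39.98 TPM of Tbx21, 48.3 to 59.99 of Il12rb2 and 40.7 to 48.05 of Cxcr3, ranges that held the A4 values. The A4 levels lay outside the Th17p DMSO Div.1 range for Stat4 (33.6 to 36.8 TPM), Il18r1 (3.45 to 4.31), Il18rap (2.99 to 4.83) and Hlx (0.0559 to 0.403). By its well name A4 sat in plate row A, as did the libraries labelled Th17p DMSO Div.1. The other libraries of its own label sat in plate row E.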
